A study of Myzus persicae with 8 samples.

Results

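The cuticular protein contigs of the green peach aphid Myzus persicae are 4 assembled transcripts whose best sequence matches are proteins of the insect cuticle. They are contig3486, described as an endocuticle structural glycoprotein, contig7126, described as a cuticular protein of the RR-3 family, and contig10027 and contig4497, each described as a cuticular protein. They were taken from the study's list of contigs up-regulated after a spray of the insecticide pirimicarb. On the array 5 of the 14628 probes represented them, 2 for contig3486 and 1 for each of the others, out of 10489 contigs in all. The ratios measured in the sensitive genotype put contig3486 and contig7126 on that list, and the ratios measured in the simple resistant genotype put contig10027 and contig4497 on it. Those ratios are therefore given below as a description, with no test. The tests estimate ratios and differences in genotypes that had no part in the choice of the contig. For differences between genotypes the error was pooled over all 7 replicates. Their intervals and P values thus depend in part on the arrays a contig was chosen on.

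The cuticle of an insect is a layered coat of chitin fibres and proteins secreted by the epidermis. Many cuticular proteins carry the Rebers and Riddiford motif, called RR, which binds chitin, and the endocuticle is the inner, flexible part that is still being laid down after the moult. The cuticle is also the first barrier that a sprayed insecticide meets. Pirimicarb is a carbamate, which inhibits acetylcholinesterase, the enzyme that ends transmission at cholinergic synapses. The sequences of the contigs and probes were not part of the data analysed here, so the descriptions could not be checked and none is printed.

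The study compared 3 clonal genotypes. The multiple resistant genotype (MR) is heterozygous for the kdr mutation, which lies in the sodium channel, and for MACE, the modified acetylcholinesterase. The simple resistant genotype (SR) is heterozygous for kdr alone, and the sensitive genotype (S) carries neither. Each genotype is 1 clonal lineage, so a difference between genotypes cannot be told apart from any other difference between these lineages. Wingless adults aged 7 days were sprayed with 1 ml of pirimicarb at 20 ppm in acetone plus water, or with the control spray, which the labels give as acetone plus water and the study's methods as water. Aphids that were alive after 24 hours were frozen and RNA was extracted from pools of whole aphids, so the insecticide samples hold survivors only. In such samples fewer cuticle-forming cells and less transcript per cell cannot be told apart.

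Each of 8 two-colour arrays on 1 slide carried insecticide and water RNA of the same genotype. This gave 2 replicates for MR (A and B), 2 for SR (A and B) and 3 for S (A, B and C). The labels call 1 of the 3 MR arrays a technical replicate of replicate A, although its title gives its water RNA another letter and the study's methods count it among the biological replicates, and it was averaged with the other array of MR replicate A. For S replicate A, 1 label names SR as the genotype, which goes against its title and its description, and it was treated as S. The dye of the insecticide RNA was Cy3 in every B replicate and Cy5 in the remaining ones. Over all probes the ratios of the 2 arrays of MR replicate A correlated at r = 0.98 with each other, and at -0.55 and -0.54 with those of MR replicate B, which carried the dyes the other way round. With the S and SR arrays, those of MR replicate A correlated at -0.47 to -0.006, and that of MR replicate B at -0.05 to 0.35. Whether the dye labels of 1 of these 2 MR replicates are exchanged could not be settled. MR ratios are therefore given as labelled, with the counts under either exchange beside them. An exchange would also swap the water and insecticide levels of that replicate. MR levels are given as labelled too, and their comparisons were not run under an exchange. All 40 spots of the cuticular protein contigs were well above background in both channels, with raw signals of 3990 to 151890 in the insecticide channel and 1119.5 to 89936 in the water channel. Below, a log2 ratio is insecticide over water within an array, and a log2 level is the normalized signal of 1 channel, which may be compared between replicates of a probe but not between probes.

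How the responses of the 4 contigs divide between S and SR was in part fixed by the choice. Contig3486 and contig7126 were higher after insecticide in all 3 S replicates, which is what placed them on the list. Contig10027 and contig4497 were higher in both SR replicates, which likewise placed them on it. Contig3486 was also above 0 in both SR replicates, as were 21.8% of all contigs. In MR, with the dyes as labelled, 0 of the 4 were up in both replicates, against 11.9% of all contigs, so this count is near the background. By the study's thresholds (a log2 ratio above 1 and an unadjusted P under 0.05 in limma), 0 of 4 were up in MR, where 0.0191% of all contigs were, 2 of 4 in SR, where 0.172% were, and 2 of 4 in S, where 1.89% were. The counts in SR and S restate the choice of the contigs. The median log2 ratio of the 4 was 0.02 in MR, 0.95 in SR and 0.76 in S, and that of all contigs was 0.00 in MR, 0.01 in SR and 0.00 in S. No probe on the array passed an adjusted p of 0.05 in limma in any genotype, while 93 probes in MR, 296 in SR and 2616 in S had an unadjusted P under 0.05.

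**Figure D1:**
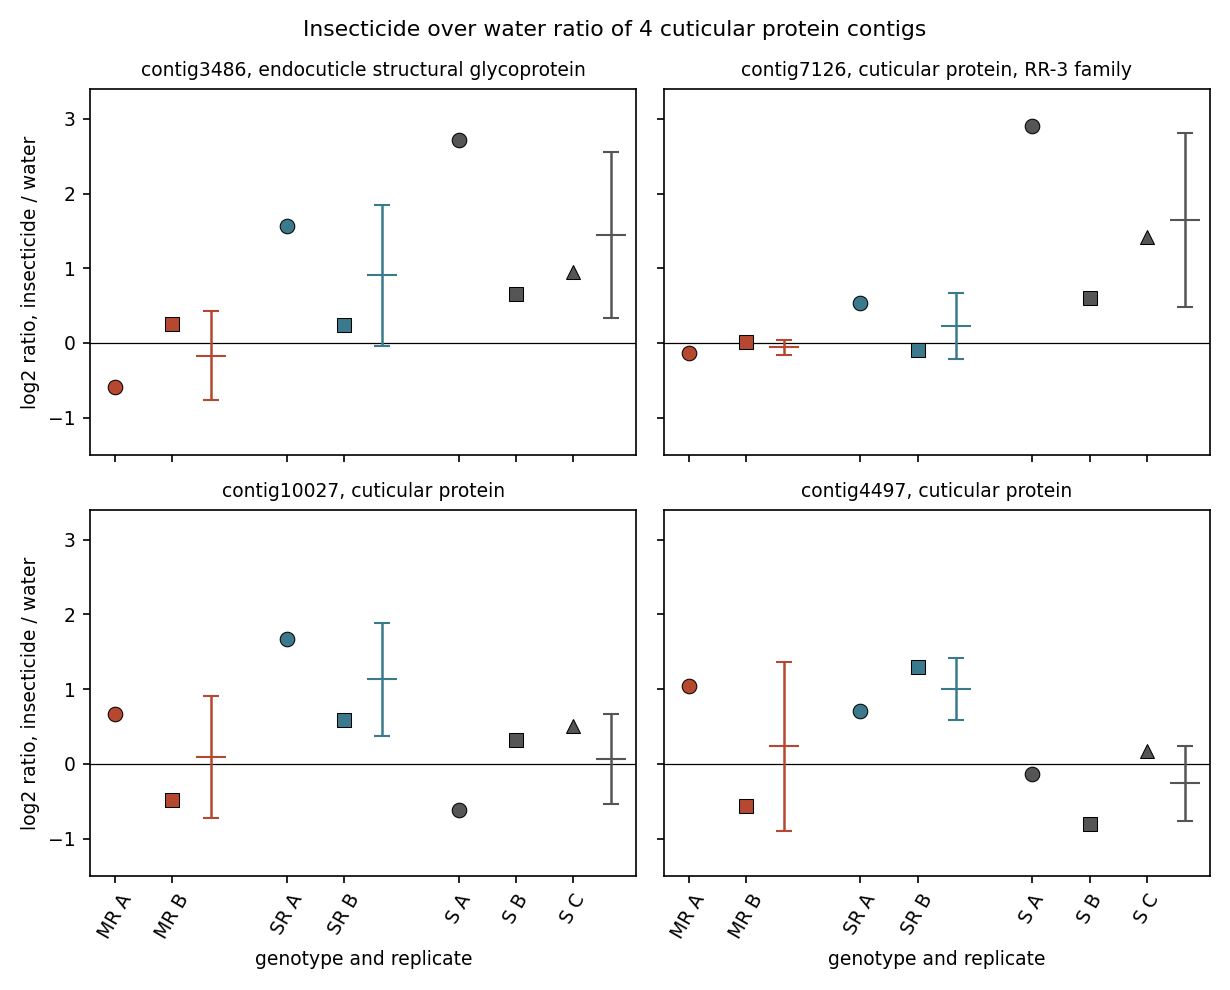
Log2 ratio of insecticide over water for the 4 cuticular protein contigs in each replicate (circle A, square B, triangle C), with the mean and SD of each genotype to the right of its points (n = 2 for MR and SR, n = 3 for S). The S replicates of contig3486 and contig7126 lie between 0.60 and 2.90, and every MR pair of replicates spans both sides of 0. Of all contigs, 39.6% were below 0 in MR replicate A and above 0 in MR replicate B, and 37.2% were the reverse.

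Contig3486 is described as a structural protein of the inner cuticle. Its log2 ratio was -0.59 and 0.25 in MR replicates A and B, 1.57 and 0.24 in SR replicates A and B, and 2.72, 0.66 and 0.95 in S replicates A, B and C. The mean was -0.17 ± 0.59 in MR, 0.90 ± 0.94 in SR and 1.44 ± 1.11 in S (SD, n = 2, 2 and 3), which in S is a 2.72-fold higher signal after insecticide. SR replicate A stood within the range of S, while SR replicate B lay at the level of MR replicate B. In SR, whose arrays played no part in choosing it, probe a gave a log2 ratio of 0.82 (95% interval -0.20 to 1.84, unadjusted P = 0.0906 in limma) and probe b 0.99 (-0.12 to 2.10, unadjusted P = 0.0692), both short of the thresholds, with an adjusted p of 1.00 each. The difference MR minus SR was -0.97 by probe a (95% interval -2.44 to 0.51, adjusted p = 1.00 in limma) and -1.18 by probe b (-3.40 to 1.03, adjusted p = 1.00), so neither a sizeable difference nor its absence was shown. The dye orientations gave different values. Among replicates with insecticide RNA in Cy5 the log2 ratio was 2.16 lower in MR than in SR, and among those in Cy3 the MR minus SR difference was 0.01.

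Both probes of contig3486 pointed the same way in every replicate, although not by the same amount. In S replicate A probe b gave a log2 ratio of 3.30 and probe a 2.15, a gap of 1.15 that exceeded the gap between probes in 99.2% of the 4139 contigs with 2 probes on that array. On the other 7 arrays the gap was between 0.06 and 0.33 in size. That gap in S replicate A was larger than the whole log2 ratio of S replicate B, at 0.66.

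Contig7126 is described as a member of the RR proteins, many of which bind chitin. Its log2 ratio was -0.13 and 0.01 in MR, 0.53 and -0.09 in SR, and 2.90, 0.60 and 1.42 in S (replicates in order). The S replicates lay above all 4 replicates of MR and SR. As it was chosen on the S ratios, this order is given as description. The mean was -0.06 ± 0.10 in MR, 0.22 ± 0.44 in SR and 1.64 ± 1.17 in S (SD, n = 2, 2 and 3), a 3.12-fold higher signal after insecticide in S. Outside S its ratio did not depart from 0 beyond the error of limma, with a 95% interval of -1.08 to 0.96 in MR and -0.50 to 0.94 in SR. The difference MR minus SR was -0.28 (-1.92 to 1.36, adjusted p = 1.00 in limma).

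Among the S arrays, S replicate A had the widest spread of ratios over all probes (SD 0.69). For contig3486 and contig7126 alike, S replicate A gave the largest ratio, and it weighed heavily on the mean. Without it the mean log2 ratio in S was 0.81 for contig3486 and 1.01 for contig7126, so that 1 of the 4 contigs passed both thresholds in S in place of 2. Counted as SR, as its one deviating label has it, S replicate A would bring the SR mean of contig3486 to 1.51 and that of contig7126 to 1.11, and that of contig10027 to 0.55 and that of contig4497 to 0.62. Contig3486 would then be the only one of the 4 past both thresholds in SR. As S replicate A is 1 of the arrays contig3486 was chosen on, that pass in part restates the choice and is no test.

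Contig10027, a cuticular protein chosen on the SR arrays, had a log2 ratio of 0.67 and -0.48 in MR, 1.67 and 0.59 in SR, and -0.62, 0.32 and 0.51 in S (replicates in order). Only in SR did all replicates lie above 0. The mean was 0.09 ± 0.82 in MR, 1.13 ± 0.76 in SR and 0.07 ± 0.60 in S (SD, n = 2, 2 and 3), and the SR mean is a 2.19-fold higher signal after insecticide. In S the 95% interval ran from -0.61 to 0.75 and in MR from -1.05 to 1.23. The difference MR minus S was 0.03 (95% interval -1.24 to 1.30, adjusted p = 0.996 in limma), and its sign turned when S replicate A or MR replicate A was left out, and when the ratio of MR replicate A was turned (-0.64).

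Contig4497, the other cuticular protein chosen on SR, had a log2 ratio of 1.04 and -0.56 in MR, 0.70 and 1.30 in SR, and -0.14, -0.81 and 0.17 in S (replicates in order). Its SR replicates were closer together than those of contig10027, but its SR mean of 1.001 ± 0.42 (SD, n = 2) was just over the threshold of 1, and the nearest value on the other side of it was that of probe b of contig3486 in SR at 0.99. MR replicate A, at 1.04, lay within the range of SR, and MR replicate B lay within the range of S. The mean was 0.24 ± 1.13 in MR (n = 2) and -0.26 ± 0.50 in S (n = 3), and MR minus S was 0.49 (95% interval -0.77 to 1.76, adjusted p = 0.937 in limma). It was -0.54 with the ratio of MR replicate A turned and 1.06 with that of MR replicate B turned. Among the tested differences in response, 0 of 4 contigs had an unadjusted P under 0.05, against 1.64% of probes for MR minus SR and 3.9% for MR minus S.

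The SR calls rest on 2 replicates each. Over all probes the log2 ratios of SR replicates A and B correlated at r = 0.08. Their SD over all probes was 0.75 in SR replicate A and 0.28 in SR replicate B. Leaving 1 replicate out leaves a single log2 ratio with no spread within SR. Without SR replicate A that ratio was 0.59 for contig10027 and 1.30 for contig4497. Without SR replicate B it was 0.70 for contig4497, 1.67 for contig10027 and 1.57 for contig3486. No call is given for a single replicate. With the arrays centred on their medians in place of loess, contig10027 had an unadjusted limma P of 0.0882 and 1 of the 4 contigs passed.

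**Figure D2:**
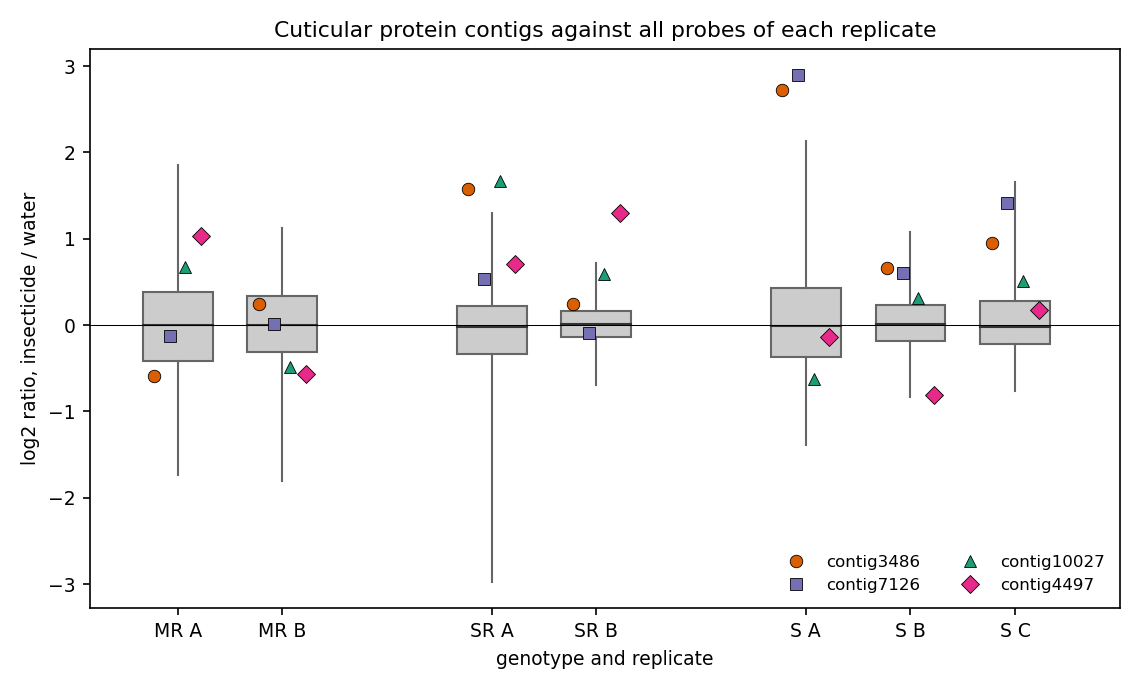
Log2 ratios of the 4 cuticular protein contigs against all 14628 probes in each replicate, where a box holds the middle 50% of probes, its line is the median and the whiskers reach the 1% and 99% points. In S replicate A, among the arrays both were chosen on, contig3486 (2.72) and contig7126 (2.90) lie above the 99% point of 2.13. In MR replicate B all 4 lie inside the whiskers.

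Set against all probes of the same replicate, the contigs moved to the edge of the distribution only in some replicates. SR replicate B had the narrowest spread of ratios, with 98% of probes between -0.70 and 0.71, and there contig4497 at 1.30 exceeded 99.9% of contigs and contig10027 at 0.59 exceeded 98.3%. In SR replicate A, whose 1% point lay at -2.98, contig10027 exceeded 99.5% of contigs and contig3486 99.4%. Contig10027 and contig4497 were chosen on the SR ratios, so their ranks in SR are description. At the low edge, contig4497 exceeded 1.15% of contigs in S replicate B. In MR replicate A the highest of the 4, contig4497, exceeded 95.3% of contigs, and in MR replicate B it exceeded 12.4%. Ratios above 0 in every replicate were found for 0 of 4 contigs in MR, against 11.9% of all contigs. In SR they were found for 3 of 4 (contig3486 besides the 2 chosen there), against 21.8%. In S they were found for 2 of 4, both chosen there, against 21.7%. With the ratio of MR replicate A turned, 2 of 4 were above 0 in both MR replicates (contig3486 and contig7126), against 39.6% of all contigs. With that of MR replicate B turned, 2 of 4 were (contig10027 and contig4497), against 37.2%.

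The separate channels show where the ratios came from. For contig3486 the insecticide level was 15.53 in both MR replicates, 16.52 and 15.88 in SR, and 16.52, 16.02 and 16.35 in S, on the log2 scale. Its water level was 16.12 and 15.28 in MR, 14.95 and 15.64 in SR, and 13.80, 15.36 and 15.39 in S. The large ratio of S replicate A thus went with a low water level rather than with an unusual insecticide level. Contig7126 had an insecticide level of 12.71 and 12.85 in MR, 12.60 and 13.21 in SR, and 13.45, 13.22 and 14.14 in S, and a water level of 12.85 and 12.84 in MR, 12.06 and 13.31 in SR, and 10.55, 12.62 and 12.72 in S. Again S replicate A had the lowest water level of the 7.

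Compared with the mean of S replicates B and C, S replicate A had a log2 insecticide level 0.33 higher for contig3486, and its log2 water level fell by 1.58. Only 1.75% of contigs had a lower water difference. For contig7126 the insecticide level differed by -0.23 and the water level by -2.12, and 0.719% of contigs had a lower water difference. The water level of S replicate A is part of the ratios that put both contigs on the list, so these shares are description. For contig4497, not chosen on S, the water level of S replicate A differed by -1.65 and the insecticide level by -1.47. For contig10027 they differed by 0.44 and -0.60. Over all 7 replicates the SD of the log2 level of contig3486 was 0.43 in the insecticide channel and 0.72 in the water channel, and that of contig7126 was 0.53 and 0.90. The median contig had an SD of 0.28 in the insecticide channel and 0.31 in the water channel, and 59.2% of contigs varied more in the water channel. Whether the low water levels of S replicate A arose from the aphids or from the hybridization was not tested.

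**Figure D3:**
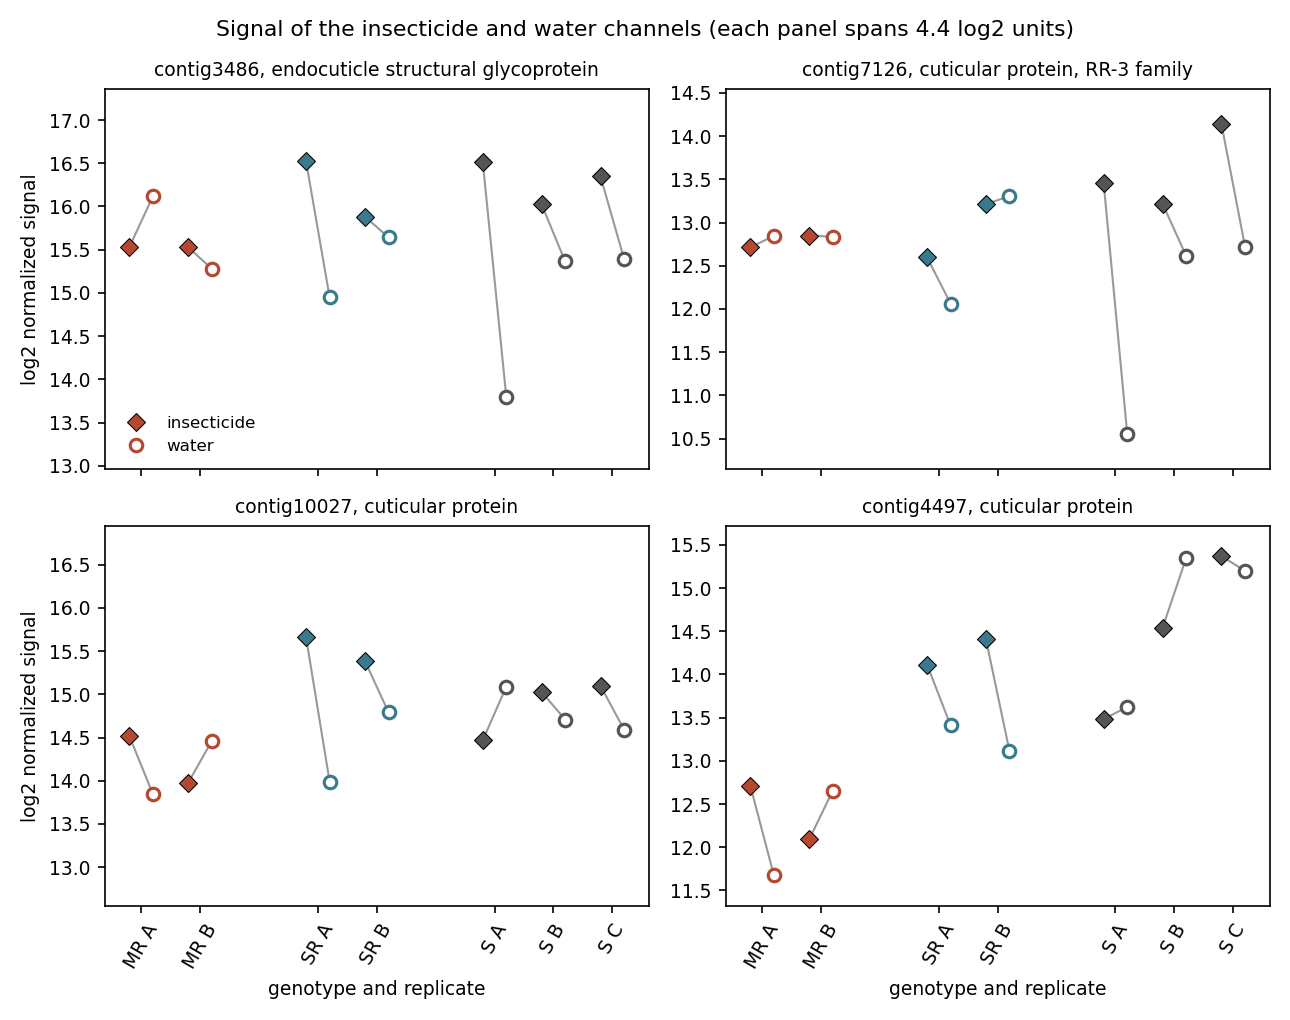
Log2 normalized signal of the insecticide channel (filled diamonds) and the water channel (open circles) for the 4 contigs in each replicate, with each pair from 1 array joined by a line and each panel spanning the same number of log2 units. In S replicate A the water level of contig3486 (13.80) and contig7126 (10.55) is the lowest of the 7 replicates, and contig4497 is lower in MR (11.67 to 12.71 over both channels) than in S (13.48 to 15.37).

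Contig10027 followed another course. Its insecticide level was 14.52 and 13.98 in MR, 15.66 and 15.39 in SR, and 14.47, 15.03 and 15.10 in S. Both SR levels were the highest, but they are part of the ratios on which contig10027 was chosen, so this is description. Its water level was 13.84 and 14.46 in MR, 13.99 and 14.79 in SR, and 15.09, 14.71 and 14.59 in S. This contig varied more in the insecticide channel (SD 0.58 over the 7 replicates) than in the water channel (SD 0.44). Both MR water levels lay below all 3 S water levels, as they did for 12% of contigs, and MR minus S was -0.71 (95% interval -1.48 to 0.06, unadjusted P = 0.0657, adjusted p = 0.661 in limma with a dye term).

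Among the tested water levels, that of contig4497 alone differed at an unadjusted P under 0.05. Its raw water signal, in the scanner's intensity units, was 4950 and 3863 on the 2 arrays of MR replicate A and 6034 in MR replicate B, 9955 and 6135 in SR replicates A and B, and 9885, 42046 and 25551 in S replicates A, B and C. After normalization its log2 water level was 11.67 and 12.66 in MR, 13.41 and 13.11 in SR, and 13.62, 15.35 and 15.20 in S. Both MR levels lay below all 3 S levels, as they did for 12% of contigs. The SR levels lay between, but contig4497 was chosen on the SR ratios, so their place is description. SR replicate A (13.41) was close to S replicate A (13.62), and their raw water signals were 9955 and 9885. The mean was 12.16 ± 0.69 in MR (n = 2), 13.26 ± 0.21 in SR (n = 2) and 14.72 ± 0.96 in S (SD, n = 3), and the MR mean was 5.89-fold lower than the S mean.

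Fitted with the dye as a term, MR minus S was -2.65 for contig4497 (95% interval -4.03 to -1.28, unadjusted P = 0.00358 in limma). Over all probes this did not pass adjustment (adjusted p = 0.661), while 5 probes (0.0342%) did and 6.63% of probes had an unadjusted P under 0.05. The two-sided exact permutation p over the 2 MR and 3 S replicates was 0.2, and this design cannot go below 0.1. A water level at least 4-fold lower in MR than in S was found for 21 of the 10489 contigs (0.2%). Within the replicates whose water RNA was in Cy3, the difference was -2.74 (1 MR and 2 S replicates), and within those in Cy5 it was -2.69 (1 each). The insecticide level of contig4497 was likewise lower in MR, at 12.71 and 12.09, than in S, at 13.48, 14.54 and 15.37, with 14.11 and 14.41 in SR, an order between MR and S that 11.3% of contigs shared. Both MR replicates were thus below all S replicates in either channel.

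Water levels of the contigs chosen on S were compared between MR and SR. For contig3486 MR minus SR was 0.51 by probe a (95% interval -0.80 to 1.81) and 0.30 by probe b (-1.64 to 2.24), and for contig7126 it was 0.16 (-1.67 to 1.98), with an adjusted p of 0.952 to 0.978 in limma. Both contigs overlapped between the genotypes in water. By unadjusted P under 0.05, 1.39% of probes differed between MR and SR in water, and 0.0273% did by adjusted p.

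A further 4 contigs of the study's lists were picked because their descriptions, likewise not checked, name proteins that can act on the cuticle. Chitin deacetylase 1 (contig15353) removes acetyl groups from chitin, aspartate 1-decarboxylase (contig15323) makes the beta-alanine used in cuticle tanning in Drosophila and Tribolium, transglutaminase (contig5938) cross-links proteins, and the yellow protein family (contig6351) is known from Drosophila for its part in pigmentation. The first 3 of these were listed for S and the yellow protein for MR. Outside the genotypes they were listed for, 0 of 4 passed both thresholds, where 0.0191% of all contigs passed in MR, 0.172% in SR and 1.89% in S, so a count of 0 is near the background. The median log2 ratio of these 4 contigs was -0.01 in MR, 0.60 in SR and 1.13 in S, and the value in S restates the choice of 3 of them.

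Chitin deacetylase 1 had a log2 ratio of -1.46 and 1.37 in MR, -0.83 and 0.76 in SR, and 1.74, 0.66 and 1.32 in S. The replicates of MR and of SR opposed each other. Of all contigs, 39.6% were likewise below 0 in MR replicate A and above 0 in MR replicate B. The S replicates lay together, but this contig was listed on the S ratios, so that restates the choice. Aspartate 1-decarboxylase gave -1.88 and 0.87 in MR, 1.17 and 0.38 in SR, and 3.31, 0.29 and 2.10 in S, and transglutaminase -0.82 and 0.87 in MR, 0.52 and 0.31 in SR, and 2.00, 0.33 and 0.76 in S. Over all probes S replicate A had the widest spread of ratios among the S arrays. Its SD was 0.69, against 0.38 in S replicate B and 0.48 in S replicate C. All 3 contigs listed for S had their largest S ratio in S replicate A, as contig3486 and contig7126 did. In that replicate their log2 water level fell by 1.76 for chitin deacetylase 1, by 1.45 for aspartate 1-decarboxylase and by 1.02 for transglutaminase relative to the mean of S replicates B and C. The insecticide level of chitin deacetylase 1 also fell by 1.01 there, whereas that of aspartate 1-decarboxylase was 0.66 higher and that of transglutaminase 0.44 higher. The water spots of aspartate 1-decarboxylase in S replicate A and of transglutaminase in S replicates A and B were not well above background.

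The yellow protein had the widest range of these 4, with log2 ratios of 4.42 and 0.45 in MR, 5.71 and 0.76 in SR, and -0.08, 0.55 and 0.97 in S. Its insecticide level was 15.74 and 11.14 in MR and 16.46 and 11.77 in SR, so replicate A of each resistant genotype was far above replicate B, whereas its water level stayed between 10.68 and 11.83 over the 7 replicates. In SR its mean was 3.23 (95% interval -0.13 to 6.59, unadjusted P = 0.0559 and adjusted p = 1.00 in limma). The A replicates and the B replicates of MR and SR carried opposite dyes, so replicate and dye cannot be told apart here.

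**Figure D4:**
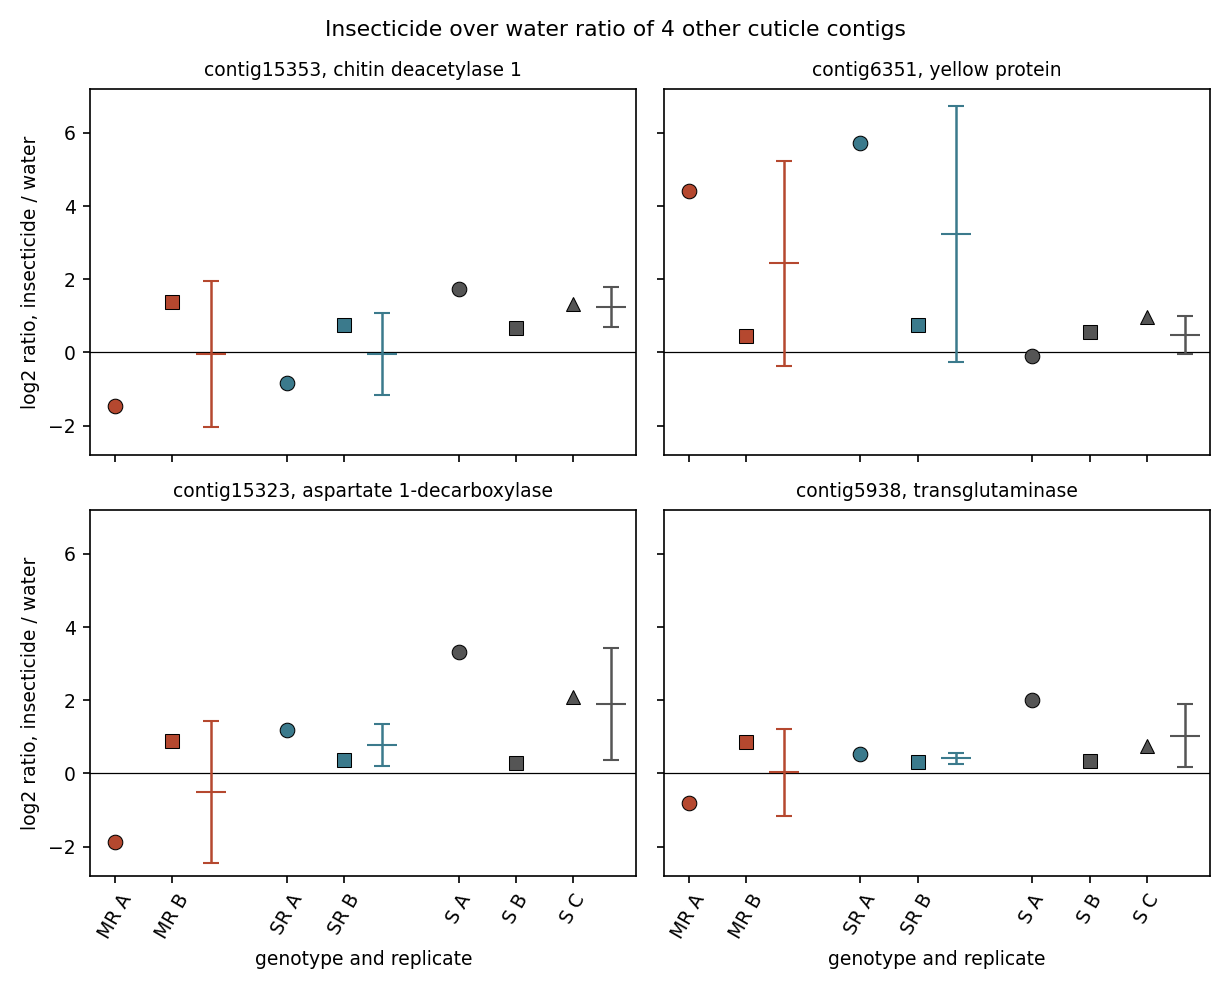
Log2 ratio of insecticide over water for 4 other cuticle contigs in each replicate (circle A, square B, triangle C), with the mean and SD of each genotype to the right of its points (n = 2 for MR and SR, n = 3 for S). The yellow protein reaches 4.42 in MR replicate A and 5.71 in SR replicate A but 0.97 at most in S, and chitin deacetylase 1 lies on both sides of 0 in MR and in SR.

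Likeness was described by Pearson's r of the log2 ratio over the 7 replicates, among 8454 contigs with at least 1 probe well above background throughout. These 7 points share genotype, dye and array effects, so r is given with no test. Only 153 of these contigs have a description, all from the study's own lists, so the described ones named are the most alike of those 153. For contig3486 the most alike contig was contig2484 (r = 0.99), and 2.05% of contigs had an r above 0.9. The described contigs most like it were contig15040 (unknown protein), contig15 (alcohol iron 1) and contig5283 (a sec-23 interacting protein), each listed for S. For contig7126 it was contig6913, an unknown protein (r = 0.98), followed among described contigs by contig9824, phosphoenolpyruvate carboxykinase 1, an enzyme of gluconeogenesis (r = 0.96), and contig1730, of the cytochrome family (r = 0.95).

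For contig10027 the most alike was contig15326 (r = 0.98). Among the described contigs the yellow protein came first (r = 0.82), then contig4497 (r = 0.59, rank 1004 among all 8454) and contig1668, an unknown protein (r = 0.31, rank 2547). For contig4497 the most alike was contig15298 (r = 0.96). Among the described contigs contig10027 came first (r = 0.59, rank 1383 of all), then the yellow protein (r = 0.55, rank 1638) and contig2519, a cytochrome P450, of the family that oxidizes many foreign compounds (r = 0.52, rank 1799).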

How the data were processed

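For each array the authors deposited the output of the scanner software Feature Extraction 10.1.1.1, which gives spot medians and local background medians as unnormalized intensities. The authors also deposited tables of fold changes, mean log2 intensities, moderated t statistics and p-values per genotype, which were not used. Background was corrected by normexp with an offset of 50, ratios were normalized by loess within arrays, and channel levels also by Aquantile between arrays. Control spots (1116 of 15744) had weight 0 in loess and were then left out, as were outlier spots. Each ratio was oriented as insecticide over water from the labelled dyes. Repeated spots of the same probe were averaged first and the pair of arrays of MR replicate A next. A linear model was fitted per genotype with lmFit and eBayes (limma 3.58.1, R 4.3.3) as in the study's methods, and P values were adjusted by Benjamini-Hochberg across the 14628 probes. Genotype contrasts of the ratio, and of the water level with a dye term, came from 1 fit of all 7 replicates. A contig's value was the mean of its probes, and a contig passed when at least 1 probe did.

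The 4 contigs, the other cuticle contigs and the tests were chosen with earlier results of these data known. Named were the 4 contigs, 4 other cuticle contigs by their descriptions, and for each of the 4 the most alike contig of all and the 3 most alike with a description. Scripts were tested on simulated data. Per-sample columns of other samples numbered 0. The reference gene table (assembly MPER_G0061.0) matched 0 contigs, so no position is given. The number of arrays limits the precision, and where no source says that replicate pools came from separate cultures, P values cover only the spread between these pools. Alternatives were other background corrections and normalizations, the scanner's processed signals, filters on dim and outlier spots, changes to the model, other ways of handling the third MR array, and each replicate left out. Python 3.11.15 with matplotlib 3.10.9 made the figures.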

Additional observations from a re-analysis of the deposited data

How the results depend on the processing

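When 1 S replicate was left out, 1 to 2 of the 4 cuticular protein contigs were up past both thresholds in S. The spread was pooled over the remaining replicates. Leaving out 1 replicate of MR or SR leaves 1 in that genotype, so no count is given there. Without MR replicate B the log2 ratio of contig4497 in MR was 1.04. With median centring in place of loess, 1 of the 4 was up past both thresholds in SR. In an alternative chosen after seeing the data, S replicate A was counted as SR. Then 1 of the 4 passed in SR (contig3486, chosen in part on that array) and 1 in S. The numbers of tested contigs with a difference in response or in water level at an adjusted p under 0.05 were 0 in every alternative run. At an unadjusted P under 0.05 in limma they were 0 for response and 1 to 2 for water level when 1 S replicate was left out. The water count was 2 with quantile normalization in place of Aquantile and 2 with the 3 MR arrays taken separately (contig10027 besides contig4497). The water difference MR minus S of contig4497 kept its sign in all 14 alternatives (-3.11 to -2.32, adjusted p of 0.0769 or higher in limma). None of these exchanged the dyes of an MR replicate.

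When 1 replicate was left out, the mean log2 ratio in MR ranged from -0.59 to 0.25 for contig3486, from -0.13 to 0.015 for contig7126, from -0.48 to 0.67 for contig10027 and from -0.56 to 1.04 for contig4497. That of contig7126 in SR ranged from -0.091 to 0.53, and in S that of contig10027 from -0.15 to 0.41 (-0.057 without S replicate B) and that of contig4497 from -0.47 to 0.017. The difference in log2 ratio ranged from -0.59 to 0.033 for contig7126 (MR minus SR), and MR minus S from -0.55 to 0.60 for contig10027 and from -0.31 to 1.30 for contig4497. In water level MR minus SR ranged from -0.39 to 1.19 for contig3486 and from -0.39 to 0.71 for contig7126. The MR minus S ratio difference of contig10027 was -0.019 with the scanner's processed signals. With the sign of MR replicate A turned, chosen after seeing that the MR replicates correlated below 0, the MR means were 0.42 for contig3486, 0.073 for contig7126, -0.58 for contig10027 and -0.80 for contig4497, and with that of MR replicate B turned instead they were -0.42, -0.073, 0.58 and 0.80 in the same order. In either case the unadjusted P was 0.0350, 0.694, 0.0198 and 0.00828 in that order, and 0 of the 4 contigs passed both thresholds. With MR replicate A turned, MR minus S was -0.64 for contig10027 and -0.54 for contig4497. With MR replicate B turned, 1 tested difference in ratio had an unadjusted P under 0.05 (contig4497, 1.06, unadjusted P 0.0208, adjusted p 0.0810). The causes were not tested.

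The replicate letters were not taken as pairs, since the labels do not say that a letter marks a shared run and not every pair of replicates with the same letter deviated together. The deviations correlated at 0.50 and 0.43 between SR and S, and at -0.37 to 0.03 in the pairs with MR. With the letter as a replicate block the count in SR was 1, as contig4497 had a log2 ratio of 1.22 at an unadjusted P of 0.0529, and no other count of the 4 contigs changed. Over all probes, those up past both thresholds numbered 4 in MR, 23 in SR and 185 in S with the block, against 4 in MR, 17 in SR and 218 in S in 1 fit of all 7 replicates without it.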
